A study of Drosophila melanogaster
Drosophila virilis with 26 samples.

Results

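The subject here is 8 genes of the fly that act in dosage compensation (msl-1, msl-2, msl-3, mle and mof) and in the splicing cascade of somatic sex (tra, tra2 and dsx). They were chosen by name, and each name matched 1 entry among 13802 D. melanogaster genes, in tables that hold 28133 genes of both species. Total RNA came by TRIzol from pooled whole D. melanogaster and D. virilis embryos of 0 to 4 h under standard growth conditions, and was mixed to hold 0, 5, 10 or 20% D. virilis RNA. The 26 libraries cover 6 protocols. Those from 1 ng of RNA were made with the Clontech Low Volume Library Construction Kit, with oligo(dT) primed Epicentre TotalScript (TotalScript), with SMARTseq v2 (SMART-seq2), and with SMARTseq v2 at tagmentation volumes of 1/2.5 and 1/5 (the 2.5x and 5x dilutions), and those from 100 ng with unstranded Illumina TruSeq. The dilutions also had a library each at 1%, and both dilutions of a mixture were made from the same amplified cDNA. They belonged to a later experiment than SMART-seq2, with its own amplification and more enrichment cycles, so protocol and experiment cannot be told apart between these groups. The labels give no sex, and RNA of all cells of a pool was measured together, so that fewer cells of a type and less RNA per cell cannot be told apart.

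In male flies, the proteins MSL1, MSL2, MSL3, MLE and MOF assemble with the noncoding roX RNAs on the single X chromosome, where MOF acetylates histone H4 and transcription of X-linked genes is raised. In females, Sex lethal (Sxl) represses msl-2 and turns on productive splicing of tra, and Transformer with Transformer 2 then directs the female splice form of dsx, while the male form of dsx is made without them. Much of this control acts on splicing and translation, which counts per gene do not resolve. Messages of many of these genes are laid down in the egg by the mother.

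No protocol repeated a mixture, so the 4 mixtures of a protocol (0, 5, 10 and 20%) served as repeat libraries after each count was divided by the library's D. melanogaster reads on genes. Levels are reads per 1000000 of that total (RPM), and p-values measure only the spread between libraries, which may be technical since no label names separate cultures or pools. The libraries held 1561692 to 7842785 D. melanogaster reads on genes with Clontech, TotalScript and SMART-seq2 and 11215999 to 19011285 with the dilutions, against 18971801 to 55055710 with TruSeq. The share of alignments assigned to no single gene was 42.3 to 52.7% in TotalScript and 17.3 to 28.1% elsewhere. All 18 listed markers of the early embryo averaged 1 RPM or more in TruSeq. The 8 maternal ones, such as CycB, summed to 10439 to 10785 RPM per library there, and the 10 early zygotic ones to 338 to 346. Of 18 genes of other tissues only bam averaged 1 RPM or more in TruSeq (84.9 RPM), a gene that the female germline also uses.

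In TruSeq, the protocol with the most input and depth, 7 of the 8 genes were each measured from at least 456 reads. The msl-1 gene, whose protein is the scaffold of the complex, averaged 427 ± 6.53 RPM (SD, n = 4 in this paragraph). The gene of the chromodomain protein MSL3 averaged 132 ± 7.97, that of the acetyltransferase MOF 107 ± 2.02 and that of the RNA helicase MLE 73.6 ± 2.67 RPM. The splicing cofactor gene tra2 had 76.2 ± 2.14 and its partner tra 15.1 ± 2.28 RPM. The lowest were msl-2, whose RING finger protein is the subunit that limits the complex to males, at 3.50 ± 0.301, and dsx, the transcription factor gene at the end of the cascade, at 0.481 ± 0.199 RPM, from 67 reads in all. No exon lengths were used, so these levels compare libraries and not genes.

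**Figure D1:**
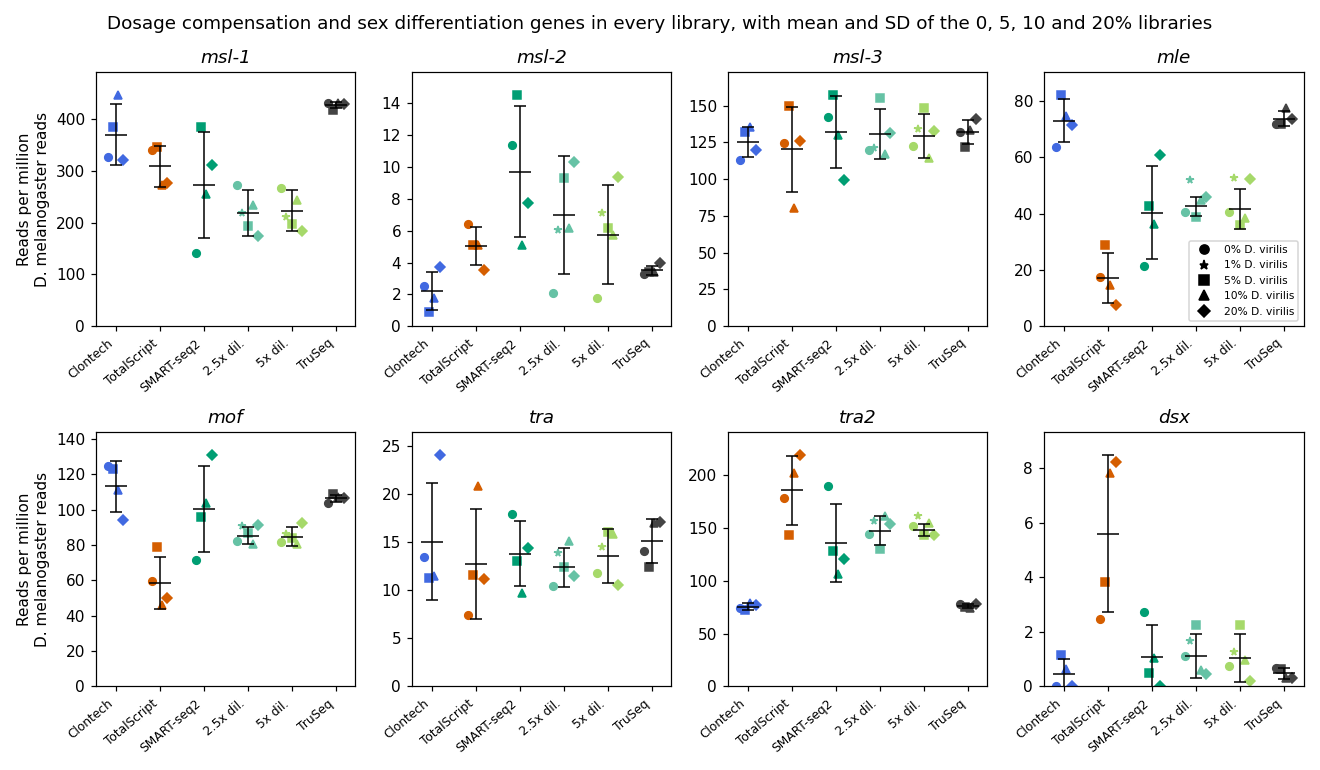
RPM (reads per 1000000 D. melanogaster reads on genes) (linear vertical axes from 0) in each of the 26 libraries, by protocol, with the mixture as the marker and the mean and SD of the 0, 5, 10 and 20% libraries in black. The TruSeq points of msl-1, mle, mof and tra2 lie close together, the TotalScript mean is the lowest for mle and the highest for tra2 and dsx, and the ranges of msl-3 overlap throughout.

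Set against TruSeq with 4 libraries a protocol, 3 patterns recurred outside Clontech. The scaffold gene msl-1 and mle were lower in TotalScript, SMART-seq2 and both dilutions, tra2 was higher in all 4, and msl-3 and tra passed the test in none. These comparisons share their TruSeq libraries and are not independent of each other. The counts here leave out dsx, which entered the comparison with TotalScript only through its higher counts there. In edgeR at an adjusted p under 0.05, TotalScript had 1 of 7 genes higher and 3 lower, beside 39.1% higher and 36.9% lower among the 6565 genes tested. SMART-seq2 had 2 of 7 higher and 2 lower, beside 36.9% and 19.1% of 6500 genes. The 2.5x dilution had 1 of 7 higher and 3 lower, beside 41.1% and 21.4% of 6664 genes, and the 5x dilution the same numbers, beside 42.4% and 22.2% of 6639 genes. Calls were frequent among all genes, so these counts are not read as particular to the 7. The median log2 fold change of the genes tested was −0.17 for the 7 genes against 0.02 for all in TotalScript, −0.08 against 0.20 in SMART-seq2, −0.29 against 0.21 in the 2.5x dilution and −0.16 against 0.21 in the 5x dilution.

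The shift of about 0.2 in the 3 SMART-seq2 protocols depends on the scaling. With trimmed mean of M values (TMM) scaling the medians of all genes were 0.02, 0.03 and 0.02, and SMART-seq2 had 1695 genes higher and 1630 lower, where scaling to the total gave 2399 and 1242. In the 2.5x dilution, TMM gave 2006 higher and 1871 lower in place of 2741 and 1428, and in the 5x dilution 2042 and 1923 in place of 2812 and 1475. Every call on the 8 genes kept its direction with TMM, and tra was then also lower in the 2.5x dilution (log2 fold change −0.47, edgeR adjusted p = 0.0292).

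The scaffold gene msl-1 was read at 326, 384, 447 and 321 RPM in Clontech, in the order of mixtures 0, 5, 10 and 20% used throughout. TotalScript had 340, 345, 273 and 276, and SMART-seq2 had 141, 384, 254 and 312 RPM. The 2.5x dilution had 274, 193, 234 and 174, the 5x dilution 268, 196, 243 and 184, and TruSeq 431, 418, 431 and 428 RPM. Every library of TotalScript, SMART-seq2 and the dilutions thus lay below every TruSeq library, while 1 Clontech library, at 10%, lay above them. Mean recovery relative to TruSeq was 86.5% in Clontech, 72.2% in TotalScript, 63.9% in SMART-seq2, 51.2% in the 2.5x and 52.2% in the 5x dilution. The log2 fold change was −0.48 ± 0.09 (SE) in TotalScript (edgeR adjusted p = 0.000625), −0.65 ± 0.23 in SMART-seq2 (adjusted p = 0.0365), −0.97 ± 0.13 in the 2.5x dilution (adjusted p = 0.000101) and −0.94 ± 0.11 in the 5x dilution (adjusted p = 4.69e-05). In SMART-seq2, the call was lost when any of 6 single libraries was left out, namely the 10% library (adjusted p = 0.0901), the 20% library (0.0521) or any 1 of the TruSeq libraries (0.0671 to 0.0702). The 0% library of SMART-seq2 was the lowest of all 26, with 260 reads of msl-1.

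The helicase gene mle had 63.7, 82.1, 74.7 and 71.4 RPM in Clontech and 17.3, 28.8, 14.8 and 7.66 in TotalScript. In SMART-seq2 it had 21.2, 42.6, 36.3 and 61.0 RPM. The dilutions gave 40.6, 38.8, 44.8 and 46.0 (2.5x) and 40.4, 35.9, 38.5 and 52.1 (5x), against 71.8, 71.7, 77.4 and 73.7 RPM in TruSeq. TotalScript had the lowest mean, 23.3% of TruSeq, and no library of TotalScript, SMART-seq2 or the dilutions reached the TruSeq range. The log2 fold change was −2.24 ± 0.24 in TotalScript (edgeR adjusted p = 1.15e-05), −0.87 ± 0.23 in SMART-seq2 (adjusted p = 0.00854), −0.79 ± 0.09 in the 2.5x dilution (adjusted p = 2.87e-05) and −0.82 ± 0.12 in the 5x dilution (adjusted p = 0.000141). TotalScript counted 26 to 49 reads of mle per library. All 4 calls held under every alternative tried.

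The acetyltransferase gene mof, which also serves in the nonspecific lethal (NSL) complex in both sexes, ranged from 93.9 to 125 RPM in Clontech and from 45.8 to 78.8 in TotalScript. SMART-seq2 ranged from 71.7 to 131, the 2.5x dilution from 80.4 to 91.1 and the 5x dilution from 80.7 to 92.6, against 104 to 109 RPM in TruSeq. Both dilutions and TotalScript lay wholly below TruSeq, and Clontech and SMART-seq2 overlapped it. The log2 fold change was −0.90 ± 0.14 in TotalScript (edgeR adjusted p = 0.000148), −0.32 ± 0.07 in the 2.5x dilution (adjusted p = 0.00277) and −0.33 ± 0.07 in the 5x dilution (adjusted p = 0.00256). The calls in the dilutions ended with the authors' sampled counts (adjusted p = 0.149 and 0.0727) and with 1 fit over all 6 protocols (0.0722 and 0.0655).

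The chromodomain gene msl-3 had a mean recovery of 94.7% in Clontech, 91.1% in TotalScript, 100.2% in SMART-seq2, 99.1% in the 2.5x and 98.0% in the 5x dilution. Its libraries spanned 113 to 135 RPM in Clontech, 80.7 to 150 in TotalScript, 99.8 to 157 in SMART-seq2, 117 to 155 in the 2.5x dilution and 114 to 149 in the 5x dilution, against 122 to 141 in TruSeq. No comparison passed the test, with log2 fold changes from −0.15 ± 0.15 in TotalScript to 0.00 ± 0.13 in SMART-seq2. Its annotation overlaps form3, a gene at 0.213 ± 0.0719 RPM in TruSeq.

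The gene of the male-limiting subunit, msl-2, was read at 2.53, 0.864, 1.79 and 3.69 RPM in Clontech and at 6.44, 5.12, 5.12 and 3.53 in TotalScript. SMART-seq2 had 11.4, 14.5, 5.12 and 7.76 RPM. The 2.5x dilution had 2.09, 9.34, 6.19 and 10.3 and the 5x dilution 1.75, 6.16, 5.71 and 9.37, against 3.27, 3.37, 3.41 and 3.94 RPM in TruSeq. Every SMART-seq2 library lay above every TruSeq library, with a log2 fold change of 1.48 ± 0.28 (edgeR adjusted p = 0.00138) that rested on 74 reads in SMART-seq2 and 456 in TruSeq. In each dilution the 0% library lay below TruSeq and the others above it, and neither comparison passed the test (0.0582 and 0.155). Without the 0% library, the lowest in each dilution, the log2 fold change was 1.30 in the 2.5x and 1.02 in the 5x dilution. These values are given with no test, as leaving out the lowest library was bound to raise them. Both dilutions also share the cDNA of that library. With the 1% library added, the log2 fold change of msl-2 was 0.96 in the 2.5x dilution (edgeR adjusted p = 0.0459). In TotalScript the log2 fold change of 0.49 ± 0.21 missed the threshold (edgeR adjusted p = 0.06). It passed without the 20% library of TotalScript, the lowest there (0.0251), or of TruSeq, the highest there (0.0389). Leaving out either could only widen the gap. The annotation of msl-2 overlaps mir-4971, for which no value is used here.

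**Figure D2:**
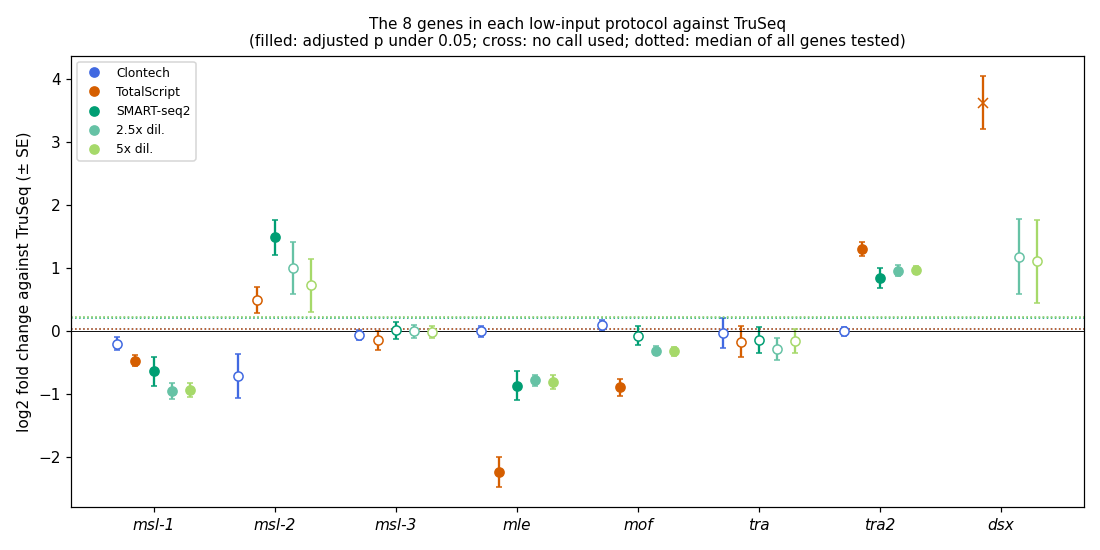
Log2 fold change against TruSeq with its SE for each gene, by low-input protocol (4 libraries against 4), filled where the edgeR adjusted p was under 0.05, with the median of all genes tested as dotted lines. Points for mle and msl-1 lie below 0 in TotalScript and the 3 SMART-seq2 protocols. Those of tra2 lie between 0.83 and 1.30 in the same protocols and at −0.01 in Clontech. The dsx gene is shown in 3 comparisons, with a cross in TotalScript where no call is used.

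The splicing cofactor gene tra2, which acts with tra in females and also in the male germline, was recovered above TruSeq everywhere but in Clontech. Clontech had 73.8, 72.0, 79.1 and 77.0 RPM and TotalScript 179, 143, 202 and 219. SMART-seq2 had 190, 128, 106 and 120, the 2.5x dilution 144, 130, 162 and 153, and the 5x dilution 152, 143, 155 and 143, against 78.2, 74.8, 74.0 and 77.9 RPM in TruSeq. No library of TotalScript, SMART-seq2 or the dilutions overlapped TruSeq. Mean recovery was 99.0% in Clontech, 243% in TotalScript, 178% in SMART-seq2, 193% in the 2.5x and 194% in the 5x dilution. The log2 fold change was 1.30 ± 0.11 in TotalScript (edgeR adjusted p = 2.82e-06), 0.83 ± 0.16 in SMART-seq2 (adjusted p = 0.00158), 0.95 ± 0.08 in the 2.5x dilution (adjusted p = 8.22e-06) and 0.96 ± 0.07 in the 5x dilution (adjusted p = 1.53e-06), and held under every alternative tried. Its annotation overlaps scaRNA:PsiU5-44, for which no value is used here, and blos1, which had 20.2 ± 6.69 RPM in TotalScript and 13.0 ± 0.929 in TruSeq. Their part in the result was not tested.

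The tra gene ranged from 11.2 to 24.0 RPM in Clontech, 7.43 to 20.8 in TotalScript, 9.73 to 17.9 in SMART-seq2, 10.4 to 15.1 in the 2.5x dilution and 10.5 to 16.0 in the 5x dilution, against 12.4 to 17.1 in TruSeq. All 5 ranges overlapped that of TruSeq, with mean recovery from 81.7% in the 2.5x dilution to 99.3% in Clontech. No comparison passed the test, the lowest adjusted p being 0.167 in the 2.5x dilution (edgeR, log2 fold change −0.29 ± 0.17). There it passed with TMM, with DESeq2 (−0.48, adjusted p = 0.0125) and without the 10% library, the highest of that dilution (−0.41, edgeR adjusted p = 0.0444). Counting was without strand, and the annotation of tra overlaps the more abundant l(3)73Ah by 74 bases. The l(3)73Ah gene had 158 ± 33.6 RPM in TotalScript and 233 ± 44.1 in SMART-seq2, against 139 ± 3.62 in TruSeq. Its part in the tra counts was not tested.

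The last gene of the cascade, dsx, averaged at most 1.21 RPM (in the 2.5x dilution) everywhere but in TotalScript, where it had 2.48, 3.84, 7.83 and 8.25 RPM from 65 reads. Clontech counted 0, 4, 5 and 0 reads and SMART-seq2 5, 1, 2 and 0. The 3 counts of 0 allow up to 1.09, 0.924 and 1.66 RPM, a limit that covers counting error only. The 2.5x dilution had 1.12, 2.24, 0.601 and 0.455 and the 5x dilution 0.742, 2.25, 0.981 and 0.205, against 0.672, 0.633, 0.319 and 0.300 RPM in TruSeq. Every TotalScript library lay above every TruSeq library, with a fitted log2 fold change of 3.62 ± 0.42. This is given as a description with no test, because dsx passed the filter on low counts in that comparison through TotalScript. It was too low to be tested in Clontech and SMART-seq2. In the dilutions it was not called (edgeR adjusted p = 0.107 and 0.169), in fits whose filter it passed partly through its counts there. Without the 20% library, its lowest in each dilution, the log2 fold change was 1.42 in the 2.5x and 1.44 in the 5x dilution. These values are given with no test, as the filter could then be passed through the dilution alone. Its annotation overlaps lds, which had 295 ± 19.0 RPM in TotalScript and 288 ± 4.27 in TruSeq, and whose part in the dsx counts was not tested.

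Clontech, which shared TruSeq reagents up to the cDNA, was the low-input protocol in which none of the 7 genes tested was called in edgeR, beside 0.168% of 6547 genes called higher and 0% lower. Recovery was 86.5% for msl-1, 63.4% for msl-2, 94.7% for msl-3, 99.1% for mle, 106% for mof, 99.3% for tra and 99.0% for tra2. The lowest unadjusted p was 0.0589, for msl-2 (log2 fold change −0.72 ± 0.34 from 36 reads in Clontech), and DESeq2 and limma called none of the 7 genes either. Without the 10% library of Clontech, the deepest of its 4, 764 genes were called in place of 11, among them msl-1 (log2 fold change −0.31, edgeR adjusted p = 0.0293). That library also held the highest msl-1 level of Clontech. Of all genes, 1145 had an unadjusted p under 0.05, and DESeq2 called 378.

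Among 29 other genes of the 2 pathways, 22 had enough reads to be tested, and none was called in Clontech. TotalScript had 5 of 22 higher and 12 lower, beside 39.1% and 36.9% of all genes, and SMART-seq2 7 and 8, beside 36.9% and 19.1%. The 2.5x dilution had 6 and 7, beside 41.1% and 21.4%, and the 5x dilution 7 and 7, beside 42.4% and 22.2%. These counts are not read as particular to the pathways. With TMM the 3 SMART-seq2 protocols had 5 and 8, 4 and 8, and 4 and 9. Their median log2 fold changes were −0.04 in Clontech, −0.36 in TotalScript, −0.05 in SMART-seq2, 0.03 in the 2.5x and 0.04 in the 5x dilution, beside medians over all genes of 0.03, 0.02, 0.20, 0.21 and 0.21.

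Of 7 listed partners of the MSL proteins, 6 were tested. The noncoding RNA roX1 averaged 27.0 RPM in TotalScript and 12.6 in SMART-seq2, against 4.90 in TruSeq, and was higher in TotalScript (log2 fold change 2.42), SMART-seq2 (1.35) and the 5x dilution (0.59, or 0.40 and not called with TMM), whereas roX2 had 2 reads in all of TruSeq and was not tested. The kinase gene JIL-1 was lower in SMART-seq2 (−0.44), the 2.5x (−0.58) and the 5x dilution (−0.54), as was Unr, which acts with Sxl on msl-2 mRNA (−0.66, −0.94 and −0.94). In TotalScript, Unr was instead higher, at 1.54, with 1611 RPM against 555 in TruSeq. Top2 and Su(var)3-7 were lower in TotalScript, SMART-seq2 and both dilutions. In that order Top2 had −0.57, −0.93, −1.01 and −1.03, and Su(var)3-7 had −0.88, −0.74, −0.58 and −0.59. The zinc finger gene Clamp, whose protein binds with the complex at its entry sites, was not called in any comparison with TruSeq, with log2 fold changes from −0.14 to −0.02. With TMM, Clamp was lower in the 2.5x (−0.27, edgeR adjusted p = 0.0362) and the 5x dilution (−0.33, 0.00623).

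All 5 genes listed for the NSL complex were tested, and TotalScript had 4 of them lower, from −0.68 for wah (NSL1) to −0.45 for MBD-R2. SMART-seq2 and both dilutions had the same 2 lower, wah and wds, at −0.79 and −0.52 in SMART-seq2, −0.94 and −0.45 in the 2.5x dilution and −0.98 and −0.44 in the 5x dilution. The 7 genes listed for splicing of Sxl held the steepest fall of the 22, that of vir, which is required for female splicing of Sxl. It averaged 8.41 RPM in TotalScript, 37.3 in SMART-seq2, 34.8 in the 2.5x and 32.1 in the 5x dilution, against 101 in TruSeq. The log2 fold change of vir was −3.70 in TotalScript, −1.44 in SMART-seq2, −1.54 in the 2.5x and −1.66 in the 5x dilution. Sxl itself was higher in all 4, at 1.44 in TotalScript, 0.66 in SMART-seq2, 0.63 in the 2.5x and 0.54 in the 5x dilution.

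Of 10 genes listed as partners and targets of Tra and Dsx, 4 were tested. The gene her, which contributes to female development with dsx, was higher in TotalScript (0.99), SMART-seq2 (0.46), the 2.5x (0.42) and the 5x dilution (0.40). The yolk protein genes Yp1, Yp2 and Yp3, which Dsx regulates in the adult fat body, averaged 0.0 to 0.51 RPM in every protocol.

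The spread between libraries was given as the coefficient of variation, the SD over the mean of the 4 libraries. Over the 6 genes with a mean of at least 10 counts in every protocol (all but msl-2 and dsx), its median was 11.5% in Clontech, 24.5% in TotalScript, 25.9% in SMART-seq2, 11.2% in the 2.5x and 14.3% in the 5x dilution, against 3.21% in TruSeq. Over the 5962 genes of the series that met the same minimum it was 15.2, 16.5, 20.6, 15.9, 15.2 and 3.14% in the same order. In the counts that the authors sampled to near equal depth, the median of the 6 genes was 12.9% in Clontech, 29.0% in TotalScript, 25.3% in SMART-seq2, 11.8% in the 2.5x and 11.7% in the 5x dilution, against 12.5% in TruSeq. That of all genes was then 16.0, 17.4, 20.8, 17.0, 16.5 and 6.93%. The 6 genes lay above the median of all genes for 2 of 6 in Clontech, 5 in TotalScript, 5 in SMART-seq2, 2 in the 2.5x and 3 in the 5x dilution, and 3 in TruSeq.

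The genes differed among themselves in spread. Of the 6, mle was the most variable in TotalScript (51.3%, where counting error alone gives 15.9%) and in SMART-seq2 (40.9%, counting 11.4%), and msl-1 in the 2.5x dilution (20.2%). In contrast, tra2 varied by 4.16% in Clontech, below the 6.0% of counting error, and by 3.93% in the 5x dilution (counting 2.24%). In TruSeq, tra stood out at 15.1% (counting 4.81%), and msl-1, mle, mof and tra2 lay between 1.53 and 3.62%. The genes left out, msl-2 and dsx, varied by 23.5 to 54.3% and 51.4 to 125% in the low-input protocols, against 8.61 and 41.3% in TruSeq. For msl-2 the dilutions had 53.1% (2.5x, counting 10.2%) and 54.3% (5x, counting 11.4%).

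**Figure D3:**
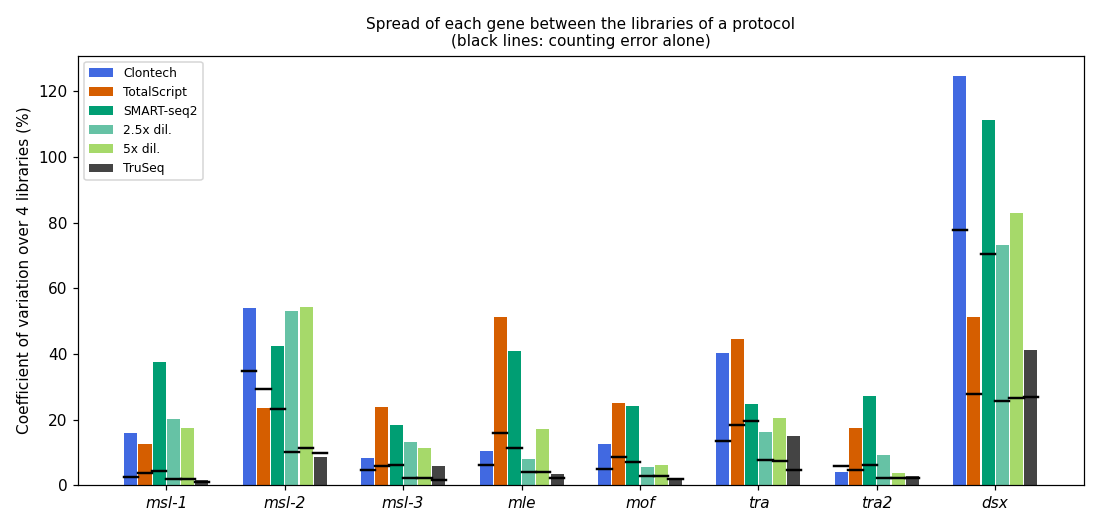
Coefficient of variation (%) of each gene over the 0, 5, 10 and 20% libraries of a protocol (bars from 0), with the value that counting error alone would give as a black line. The bars of dsx reach 125% in Clontech, and those of mle reach 51.3% in TotalScript and 3.62% in TruSeq.

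The dilutions compared the volume of the tagmentation reaction. In neither the 2.5x dilution against SMART-seq2 nor the 5x against the 2.5x dilution was any of the 8 genes called, beside 0% of 6400 and 0% of 6601 genes in edgeR. DESeq2 and limma also called 0 genes in both. An unadjusted p under 0.05 was found for 190 genes in the first and 0 in the second comparison, and leaving out the 0% library of the 2.5x dilution gave 2 calls in the first, none of them among the 8. With the mixture as a block, as the shared cDNA of the dilutions asks, 152 genes had an unadjusted p under 0.05 in the second comparison and 0 were called. The log2 fold changes in the first comparison ran from −0.48 ± 0.52 for msl-2 to 0.11 ± 0.19 for tra2, over the 7 genes tested, and in the second from −0.28 ± 0.57 for msl-2 to 0.13 ± 0.23 for tra.

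Library by library, the 5x dilution followed the 2.5x dilution of the same cDNA. Leaving out msl-2 and dsx, the ratio of the 5x to the 2.5x library lay between 0.860 (mle at 10%) and 1.29 (tra at 5%) over the 5 mixtures. The ratio ran from 0.660 (5%) to 1.17 (1%) for msl-2 and from 0.451 (20%) to 1.63 (10%) for dsx. For msl-2, the pair at 0% stood below the other mixtures in both dilutions, at 1.75 RPM in the 5x dilution (26 reads, exact 95% binomial interval 1.15 to 2.57) and 2.09 in the 2.5x dilution (26 reads, 1.36 to 3.06). Its other 8 libraries, with those at 1% at 7.10 and 6.07, lay between 5.71 and 10.3 RPM. The msl-1 libraries at 0% were in turn the highest of both dilutions, at 268 and 274 RPM. The intervals cover counting error only, since reads are not independent molecules after amplification.

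**Figure D4:**
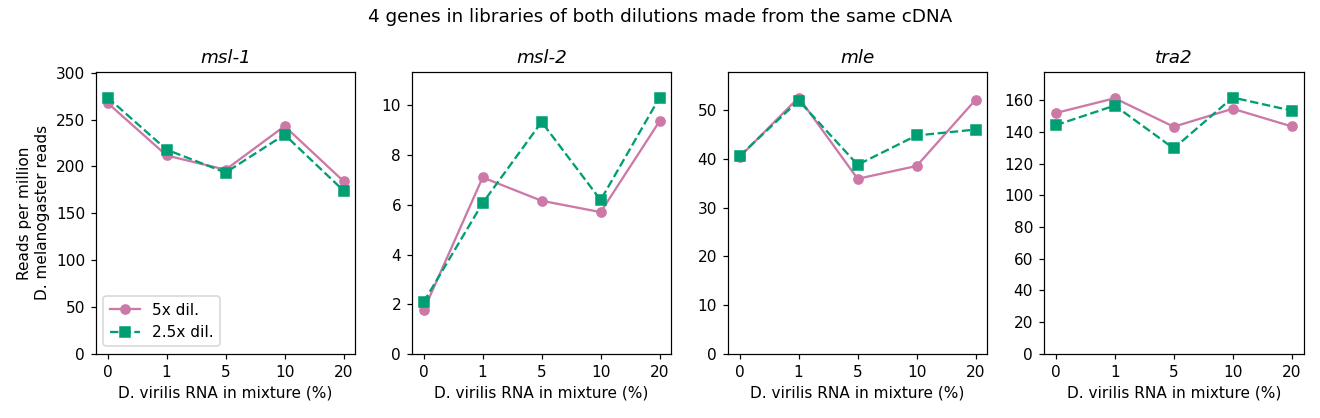
RPM (reads per 1000000 D. melanogaster reads on genes) for msl-1, msl-2, mle and tra2 in the 5x and 2.5x dilutions, by D. virilis share of the mixture (categories, not to scale). The 2 lines of a panel run close together for msl-1, mle and tra2. Those of msl-2 lie apart at 5% (6.16 and 9.34), with 1.75 and 2.09 at 0% and up to 10.3 at 20%.

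The D. virilis part of the mixtures offered another set of transcripts of the same genes, a comparison added after the values of the 8 genes were seen. Of the 8 names, 6 had a D. virilis entry with the prefix Dvir, and mle and mof were not among them. Levels are reads per 1000000 D. virilis reads on genes (RPM of that species) in the 5, 10 and 20% libraries (n = 3). The 1% libraries of the 2.5x and 5x dilutions are left out of these means and fits. They had 0 and 0 reads of Dvir\msl-1, and 229 and 276 RPM of Dvir\msl-2. Dvir\msl-3 had 162 and 138 RPM there, and Dvir\tra2 had 350 and 342. Dvir\msl-1 averaged 340 ± 158 in Clontech, 106 ± 67.3 in TotalScript, 110 ± 12.7 in SMART-seq2, 75.1 ± 3.02 in the 2.5x and 75.5 ± 9.89 in the 5x dilution, against 393 ± 23.5 in TruSeq. Like msl-1 it was lower in TotalScript (log2 fold change −2.21 ± 0.26, edgeR adjusted p = 1.64e-10), SMART-seq2 (−1.81 ± 0.28, 8.95e-05), the 2.5x (−2.39 ± 0.17, 4.58e-05) and the 5x dilution (−2.36 ± 0.18, 7.51e-05). Whether these differ from the values of msl-1 was not tested. Of all D. virilis genes tested, 0% of 5596 were called in Clontech, 74.6% of 5617 in TotalScript, 30.6% of 5345 in SMART-seq2, 37.7% of 6375 in the 2.5x and 37.3% of 6330 in the 5x dilution. The median log2 fold changes of all D. virilis genes tested were 0.04, −0.10, 0.15, 0.26 and 0.26 in the same order.

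Dvir\tra2 averaged 80.6 ± 19.0 in TotalScript, 125 ± 33.3 in SMART-seq2, 172 ± 28.2 in the 2.5x and 158 ± 17.6 in the 5x dilution, against 83.5 ± 1.83 in TruSeq. It was higher in the 2.5x (1.05 ± 0.21, edgeR adjusted p = 0.00561) and the 5x dilution (0.93 ± 0.20, 0.00833), was not called in SMART-seq2 (0.57 ± 0.34, 0.219), and in TotalScript had −0.01 ± 0.31 (0.97), where tra2 had 1.30. Dvir\msl-3 was lower in TotalScript (−0.76 ± 0.28, 0.0136) and not called elsewhere. Dvir\msl-2, unlike msl-2, had a level of 127 ± 8.06 in TruSeq and was lower in TotalScript alone (−1.79 ± 0.38, 4.68e-05), with 15 reads there. No D. virilis gene of this set was called in Clontech, where the lowest unadjusted p was 0.0267, for Dvir\msl-2. Dvir\tra had at most 30 reads in a protocol and Dvir\dsx 1 read in all. In the 6 libraries without D. virilis RNA, Dvir\msl-2 had 16 reads in all, Dvir\tra2 3, Dvir\msl-1 1 and the other 3 names 0.

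**Figure D5:**
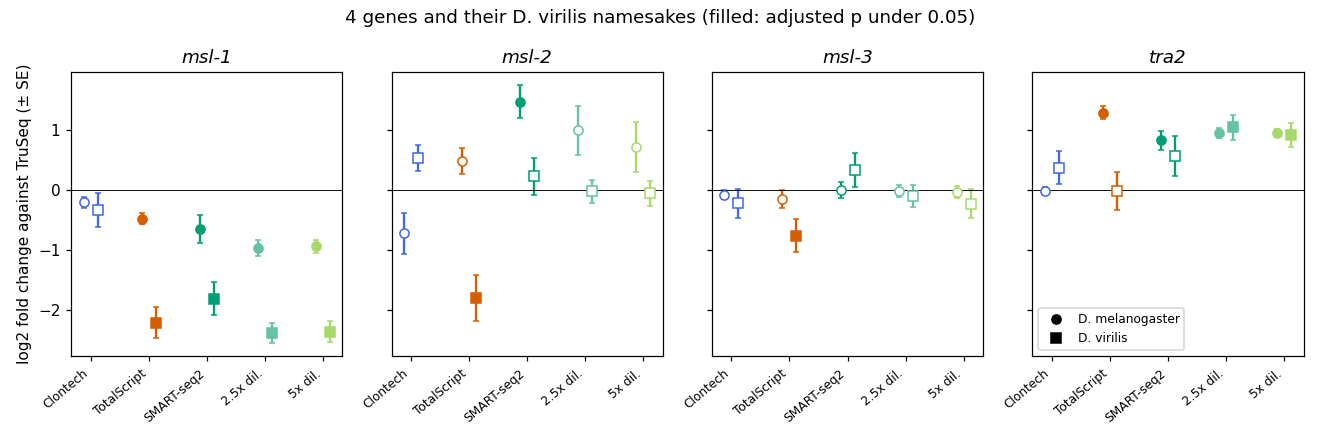
Log2 fold change against TruSeq with its SE for msl-1, msl-2, msl-3 and tra2 (circles, 4 libraries against 4) and their D. virilis namesakes (squares, 3 against 3), filled where the edgeR adjusted p was under 0.05. The squares of msl-1 lie at −2.39 to −1.81 outside Clontech, and those of tra2 lie near the circles in both dilutions and at −0.01 in TotalScript.

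For the 6 genes with enough reads, the gene whose log2 level was most alike over the 26 libraries was found among 5741 D. melanogaster genes with at least 10 counts in every library. It was CG14545 for tra2 (Pearson's r = 0.977), CG7518 for mle (0.959), Pdk1 for msl-1 (0.950), mus101 for mof (0.932), Oseg6 for msl-3 (0.724) and Sap30 for tra (0.641). Libraries of 1 protocol share its depth and chemistry and are not independent points, and each value was picked as the highest among those genes.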

How the data were processed

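The authors mapped 50 bp single-end reads with STAR to the FlyBase 5.54 genomes of both species together and counted reads per gene with htseq-count, without strand. CASAVA 1.8 is also named in the submitters' processing notes. The deposited values are counts at full depth, and again after the authors' random sampling to equal depth. Their columns are labelled FPKM but hold whole numbers that end in the 5 htseq-count categories, which were left out of totals (17.3 to 52.7% of alignments). All value columns were matched to a library, and no 2 libraries held identical counts.

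Full-depth counts of D. melanogaster genes were tested in edgeR 4.0.16 (R 4.3.3) by quasi-likelihood, in pairs of protocols with 4 libraries each, with the D. melanogaster total on genes as library size, filterByExpr and Benjamini-Hochberg adjustment over all genes tested. The steps were tested on simulated data. Alternatives were TMM, DESeq2 1.42.0, no filter, sampled counts, 1 fit over 6 protocols, limma 3.58.1 with voom weights by protocol, the mixture as a block, each library left out and the 1% libraries added. Both dilutions of a mixture shared cDNA, and their deviations from the group means correlated at 0.848 to 0.922, so mixtures pair these libraries. Intervals are exact binomial at 95%, and the limit for a count of 0 is 3 counts. Overlaps of genes are those of the RefSeq annotation on Release 6, a later build than the authors', so they may differ from the annotation counted, and levels per kilobase were not computed. Tables were handled in Python 3.11.15 with pandas 2.3.3.

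The 8 genes, the lists and the tests were chosen with earlier results of these data known. Text names are all 8 genes, listed pathway genes with values where they differ from or bear on the 8, the D. virilis namesakes and the most alike gene of each.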

Additional observations from a re-analysis of the deposited data

Results flagged for a closer look

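In Clontech, the 20% library had 24.0 RPM (reads per 1000000 D. melanogaster reads on genes) of tra, from 78 reads (exact 95% binomial interval 19.0 to 30.0), while the other 3 libraries lay between 11.2 and 13.4. It was set apart because its gap to the nearest library was 0.831 of the whole range, just over the limit of 0.829 that Dixon's test sets for 4 values. This was 1 of 48 groups of libraries tested, of which chance alone would set apart about 5%.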

How the results depend on the processing

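Of 16 calls on the genes other than dsx, 13 held their direction and threshold under every alternative that gave a value. For 1 of these, msl-2 in SMART-seq2, some alternatives add nothing to the call. With sampled counts or a TruSeq library left out, msl-2 could pass the filter on low counts through SMART-seq2 alone. The exceptions were msl-1 in SMART-seq2 and mof in both dilutions, as given with those genes, and no called value changed sign. The mixture as a block changed no call on the 8 genes (4 called in SMART-seq2 against TruSeq, as without it). Mixtures paired the libraries only between the dilutions. Elsewhere some same-mixture pairs correlated, such as those at 5% against TruSeq (0.119 to 0.185), but in no comparison did all of them exceed 0.1. Against TruSeq the block gave 44 calls over all genes in Clontech and 4693 in TotalScript, in place of 11 and 4985. The cause of the changes in this section was not tested.

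In Clontech against TruSeq, the number of genes called moved from 11 to 378 with DESeq2, 27 with no filter, 3 with 1 fit over all protocols and 18 with voom weights, and from 1 to 764 as single libraries were left out, with 0 or 1 of the 8 genes among them. Leaving out single libraries gave 0 to 2 calls in the 2.5x dilution against SMART-seq2. The median coefficient of variation of 6 genes in TruSeq was 12.5% in the sampled counts, at 1911061 to 2067102 D. melanogaster reads, against 3.21% at full depth, and leaving out single libraries gave 6.60 to 13.6% in the 2.5x dilution, with 6.60% without its 5% library.

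Of the 8 genes, msl-2 and dsx had the fewest reads, with 36 to 74 and 8 to 65 in all in the shallower protocols. In the deeper dilutions msl-2 still varied by 53.1% (2.5x, counting 10.2%) and 54.3% (5x, counting 11.4%). The part of depth in the spread of these genes was not tested.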
